A study of Homo sapiens with 6 samples.

Results

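The mitochondrial ribosomal protein genes were taken as all genes whose symbol is MRPL or MRPS followed by digits, without pseudogenes and antisense names. This rule found 78 of the 60683 genes in the table, 49 named for the large subunit (MRPL) and 29 named for the small subunit (MRPS) of the mitochondrial ribosome. Expression was measured by RNA sequencing of RCC4, a cultured human line from a clear cell kidney cancer that carries no working VHL in either group. The 3 parental libraries carry the label wild type, which here refers to ATF4, and the other 3 libraries are from RCC4 cells labelled ATF4 KO, with ATF4, the transcription factor of the integrated stress response, knocked out. No drug, dose or time is given for either group. Neither the knockout method nor whether the cells are a clone or a pool is stated, and nothing says that the 3 samples of a group were separate cultures, so p-values cover no more than the spread among the samples sequenced, which may be technical.

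The mitochondrial ribosome translates the few messenger RNAs made from mitochondrial DNA, which encode core subunits of the respiratory chain and ATP synthase. All of its proteins are encoded in the nucleus, made in the cytosol and imported, whereas its ribosomal RNAs come from mitochondrial DNA. Many of the proteins descend from bacterial ribosomal proteins, and the rest are found in mitochondrial ribosomes and have no bacterial counterpart.

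Libraries held 41002611 to 46755358 counts assigned to genes. The first principal component of log2 CPM (TMM-scaled counts-per-million) carried 55.7% of the variance. For pairs of samples, the chi-square per degree of freedom of counts was 37.89 to 44.12 between groups and 3.59 to 5.8 within them. The counts of ATF4 were 10413, 11037 and 10219 in the parental and 8628, 10386 and 9895 in the knockout libraries, which in CPM was 239, 251 and 243 against 210, 223 and 209. Its log2 fold change was -0.19 ± 0.0294 (SE, edgeR adjusted p = 3.19e-07), so its messenger RNA remained and does not check the labels. When the median change of neighbouring genes was removed the value was 0.08, and ATF4 was called higher (edgeR adjusted p = 0.0327). The renal carcinoma markers were all detected, among them PAX8 at a mean of 238 CPM in parental and 215 CPM in knockout samples, and of these 7 markers PAX8 and KRT18 were called lower and CA9 (2.55 on the log2 scale), NDUFA4L2 (0.77) and VIM (0.10) higher. Markers of leukocytes, endothelium and hepatocytes (PTPRC, PECAM1 and ALB) summed to at most 0.115 CPM in any sample, and ALB was at 0 in all 6.

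Of the 78 mitochondrial ribosomal protein genes 77 passed the filter on low counts and were tested, 48 of the large and 29 of the small subunit. In edgeR's quasi-likelihood test, 29 were higher and 10 were lower in ATF4 knockout than in parental cells (adjusted p below 0.05 over 15321 genes), and 38 were not called. Over all tested genes 21.2% were called higher and 20.8% lower, 42% in all, against 37.7% and 13% of the members. The members' median log2 fold change was 0.07, beside 0.008 over all genes, and 55 of the 77 had a fitted value above 0. In bulk RNA, fewer cells of a type and less RNA per cell cannot be told apart. The changes were small. The median absolute log2 fold change was 0.11 over the members and 0.16 over all tested genes, 22 of the 39 called members changed by under 0.2 on the log2 scale, and only MRPL38 changed at least 2-fold. In 35 members every knockout sample lay above every parental sample and in 12 every one lay below, where 25.3% and 24.3% of all tested genes did so.

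**Figure D1:**
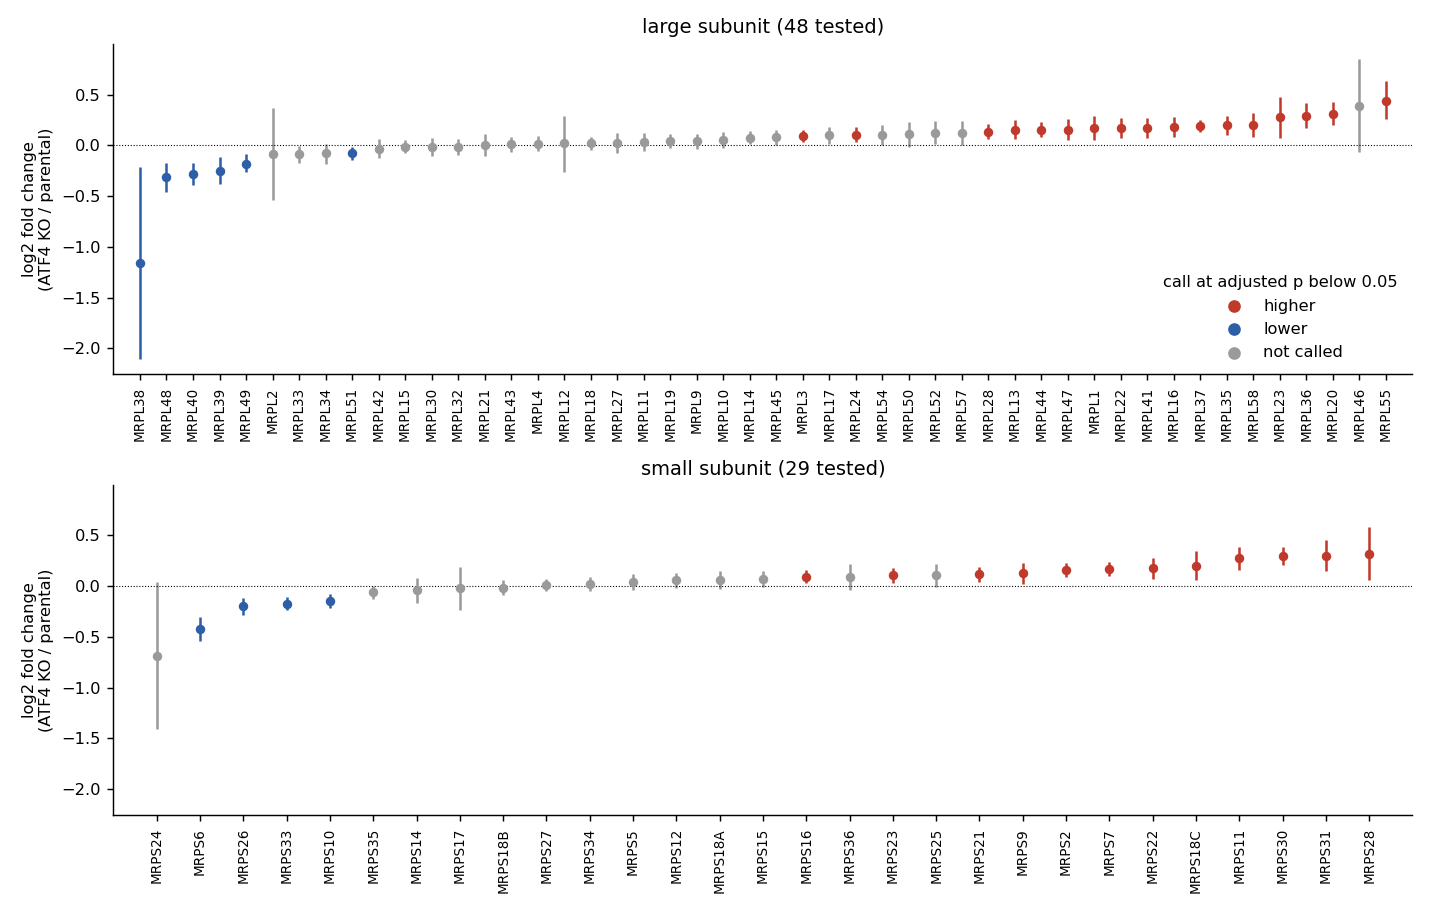
Log2 fold change (ATF4 knockout over parental, vertical axis) of each tested mitochondrial ribosomal protein gene with its 95% confidence interval, by subunit and ordered by value. Red marks the 29 genes called higher, blue the 10 called lower and grey the 38 not called. Most values lie within 0.2 of 0, and the widest intervals belong to weakly counted genes such as MRPL38, MRPS24 and MRPL46.

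Among large subunit proteins, 17 of 48 genes rose and 6 fell. MRPL55 (chr1:228106679-228109312, GRCh38, minus strand) had the highest fold change. It stood at 7.27, 8.51 and 8.31 CPM in parental and 10.2, 10.6 and 11.8 CPM in knockout samples, a log2 fold change of 0.44 ± 0.0909 (SE, adjusted p = 6.07e-05). All knockout samples were above all parental samples, and the call was made under each of 14 alternative settings. MRPL20 (chr1:1401908-1407313), whose bacterial homolog binds ribosomal RNA early in assembly of the large subunit, was at 23.3, 23.2 and 22.6 CPM in parental and 29.9, 28.5 and 27.5 CPM in knockout samples (0.31 ± 0.0557, adjusted p = 5.09e-06). Its groups were apart too, with the nearest samples at 23.3 and 27.5 CPM. MRPL37 (chr1:54184041-54225464), a protein of the mitochondrial large subunit without a bacterial counterpart, was at 187, 182 and 179 CPM in parental and 213, 208 and 203 CPM in knockout samples. It had the highest CPM of all members, and its rise of 0.19 ± 0.029 had an adjusted p of 2.64e-07.

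MRPL16, which lies near the peptidyl transferase centre in ribosomes, rose from 34.3, 33.6 and 34.7 CPM to 39.2, 38.4 and 38.8 CPM (0.18 ± 0.0483, adjusted p = 0.00182). The knockout samples lay close together and above the parental ones. MRPL35 rose from a mean of 39.7 ± 1.37 to 45.5 ± 1.52 CPM (SD, n = 3 each), or by 0.20 on the log2 scale (edgeR adjusted p = 4.07e-04). MRPL58, a peptidyl-tRNA hydrolase built into the large subunit that can release stalled chains, was at 21.8, 20.9 and 21.3 CPM in parental and 23.2, 25 and 25.1 CPM in knockout samples (0.20 ± 0.0584, adjusted p = 0.00451). With the median change of neighbouring genes removed, a fit described with the genes that fell, MRPL58 was at 0.09 and not called. MRPL22 and MRPL23, which line the exit of the nascent chain tunnel in ribosomes, were at 0.17 (adjusted p = 0.0033) and 0.28 (adjusted p = 0.025). The MRPL23 call rested on a low level, 6.03 to 6.34 CPM in parental and 7.21 to 7.93 CPM in knockout samples, and was lost without parental replicate 1 (0.26), without parental replicate 2 (0.27) or without knockout replicate 3 (0.23). MRPL44, MRPL13, MRPL1, MRPL41, MRPL47, MRPL28, MRPL24 and MRPL3 rose by 0.09 to 0.17 on the log2 scale. Leaving out 1 library ended the calls of MRPL41 (0.13 without parental replicate 1), MRPL1 (0.15 without knockout replicate 2), MRPL24 (0.09 without parental replicate 3, 0.07 without knockout replicate 2), MRPL47 (0.15 without parental replicate 1, 0.12 and 0.13 without knockout replicate 2 or 3) and MRPL3 (0.08 without parental replicate 2 or knockout replicate 1 or 2).

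Among small subunit proteins, 12 of 29 genes rose and 4 fell. MRPS31 (chr13:40729135-40771173), a mitochondria-specific protein, was at 11.5, 11.4 and 11.9 CPM in parental and 14.6, 14.0 and 14.2 CPM in knockout samples (0.30 ± 0.076, adjusted p = 9.36e-04). MRPS11 (chr15:88467453-88480773), the homolog of a bacterial protein of the platform of the small subunit, was at 22.5, 23.1 and 26 CPM in parental and 30.2, 29.5 and 27.1 CPM in knockout samples (0.28 ± 0.0586, adjusted p = 1.04e-04). The groups of both genes were apart, for MRPS11 by the narrow gap between parental replicate 3 and knockout replicate 3.

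MRPS7, which binds ribosomal RNA in the head of the small subunit, rose from 78.4, 78.5 and 78.5 CPM to 87.9, 89.1 and 88.1 CPM (0.17 ± 0.0347, adjusted p = 5.23e-05). MRPS22 rose from 29.3, 29.6 and 28.8 CPM to 34.6, 32.5 and 32.2 CPM (0.18 ± 0.0519, adjusted p = 0.00396), and MRPS2 from a mean of 85 ± 3.15 to 94.9 ± 2.53 CPM (SD, n = 3 each). In all 3 genes no knockout sample fell within the parental range. With the neighbours' median removed MRPS7 was at 0.06 and MRPS2 at 0.08, neither called, and MRPS22 at 0.14 and called. MRPS28 had the highest fitted value of the small subunit, 0.32, on a level of 3.37 to 3.86 CPM in parental and 4.04 to 4.80 CPM in knockout samples, with an adjusted p of 0.0413. That call was lost in 8 of 14 alternatives, among them the fits without parental replicate 2 (0.31), parental replicate 3 (0.28), knockout replicate 1 (0.30) or knockout replicate 2 (0.27). MRPS21, MRPS9, MRPS23 and MRPS16 rose by 0.09 to 0.13. The calls of MRPS9 (0.13, 0.11, 0.10 and 0.12) and MRPS23 (0.10, 0.09, 0.09 and 0.10) were lost without parental replicate 1 or 2 or knockout replicate 1 or 2, and that of MRPS16 (0.08, 0.09 and 0.08) without parental replicate 1 or knockout replicate 2 or 3.

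**Figure D2:**
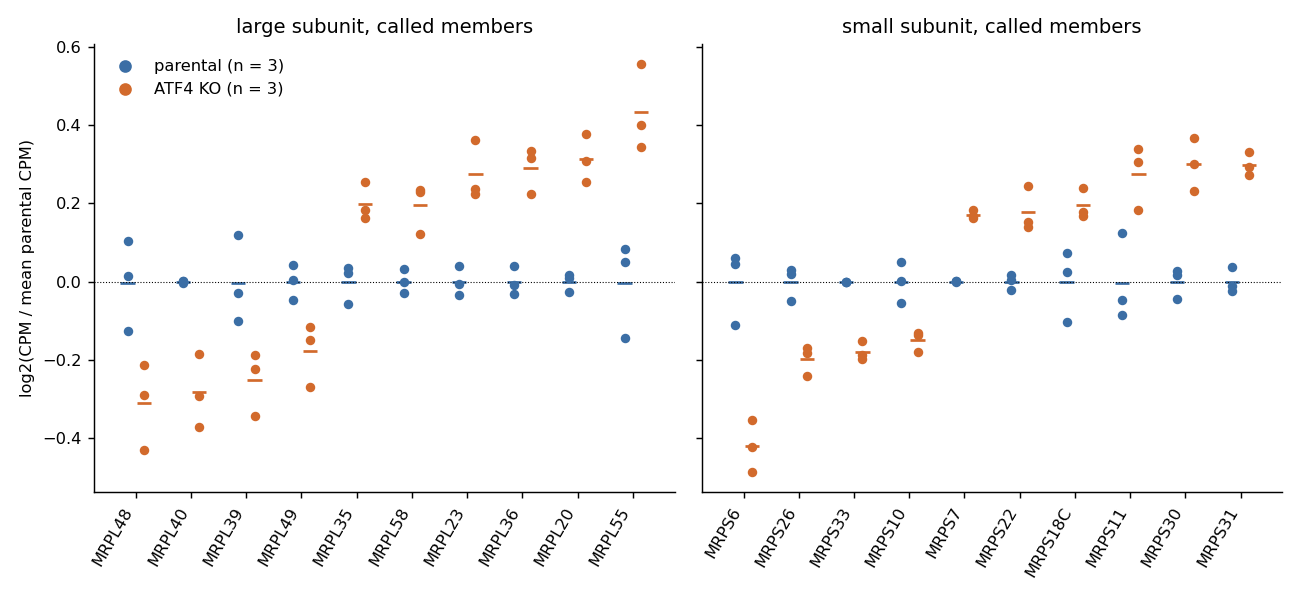
Level in each sample as log2 of CPM over the parental mean (vertical axis) for the 4 lowest and 6 highest called genes of each subunit with a parental mean of at least 5 CPM. Blue points are the 3 parental and orange points the 3 ATF4 knockout samples, and lines are means. In all 20 genes shown the groups do not overlap, and the widest shift down is that of MRPS6.

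The genes that fell were unevenly placed in the genome. MRPS6 (chr21:34073224-34143034), whose bacterial homolog pairs with S18 on the platform, fell from 28.9, 25.7 and 28.6 CPM to 20.7, 19.8 and 21.7 CPM (-0.42 ± 0.059, adjusted p = 3.68e-08). The other member on chromosome 21, MRPL39 (chr21:25585656-25607517), fell from 23.0, 21.9 and 25.5 CPM to 20.6, 20.1 and 18.5 CPM (-0.25 ± 0.063, adjusted p = 9.29e-04). MRPL40, of the central protuberance, on chromosome 22 (chr22:19431902-19436075) fell from 33.0, 32.9 and 33.0 CPM to 29, 26.9 and 25.5 CPM (-0.28 ± 0.0537, adjusted p = 1.81e-05). In each of these genes all knockout samples were below all parental samples. Over all tested genes the median log2 fold change was -0.22 on chromosome 21 (154 genes), -0.28 on chromosome 22 (351), -0.16 on chromosome 11 (851) and -0.15 on chromosome 20 (412), and between -0.08 and 0.09 on the other autosomes.

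On chromosomes 11, 20, 21 and 22, chosen after these medians were seen, 2 of 11 members were higher and 6 lower, with a median of -0.18. The higher ones were MRPL16 and MRPL23. On the other chromosomes 27 of 66 were higher and 4 lower (MRPL38, MRPL51, MRPS10 and MRPS33), with a median of 0.09. Shares over all tested genes were 21.2% higher and 20.8% lower, and were not counted by chromosome. The fit was therefore repeated with the median log2 fold change of the other tested genes within 10 Mb on each side, members left out, subtracted from each gene. Of all genes 18.1% were then called higher and 18.3% lower, and of the members 20 were higher and 5 lower with a median of 0.05. In this fit 14 of the 29 genes that rose and 3 of the 10 that fell kept their call. The 15 higher calls lost were those of MRPL58 (0.09), MRPL36 (-0.07), MRPL47 (0.13), MRPL1 (0.14), MRPL41 (0.10), MRPL28 (0.09), MRPL3 (0.05) and MRPL24 (0.03) in the large and of MRPS28 (0.27), MRPS9 (0.10), MRPS2 (0.08), MRPS7 (0.06), MRPS16 (0.05), MRPS23 (0.05) and MRPS21 (0.02) in the small subunit. MRPS6 was at -0.11, MRPL39 at 0.06 and MRPL40 at 0.02, none of them called, and MRPL48 and MRPL49 on chromosome 11 were at -0.16 and -0.04 and not called either. On chromosome 11, where neighbours were lower by 0.13 to 0.20 on the log2 scale, 5 of 7 members were called higher after the subtraction (MRPL23 0.47, MRPL16 0.31, MRPL17 0.29, MRPL11 0.16 and MRPL21 0.14) and none lower. On the short arm of chromosome 5 the neighbours were higher, with a median of 0.26 over 123 genes. Both members there had been called higher, MRPL36 from 18, 18.3 and 18.9 to 22.9, 23.2 and 21.5 CPM and MRPS30 from 44.1, 44.4 and 42.3 to 51.2, 53.7 and 56.2 CPM. After the subtraction MRPL36 was at -0.07 and not called, and MRPS30 at 0.13 and called. What the shifts of whole chromosomes rest on was not tested.

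**Figure D3:**
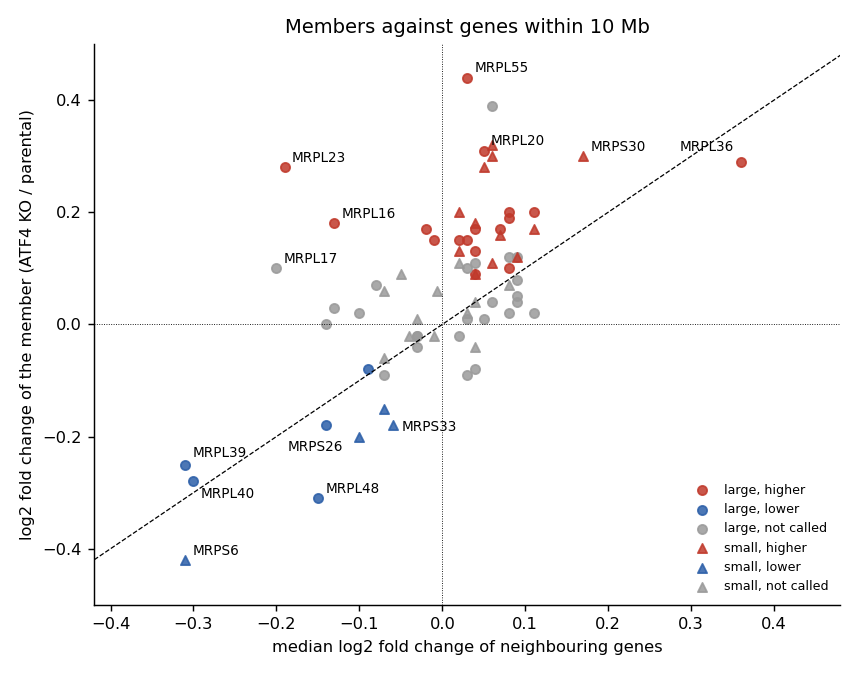
Log2 fold change of each tested member (vertical axis) against the median log2 fold change of the other tested genes within 10 Mb (horizontal axis). Circles are large and triangles small subunit genes, colours give the call, the dashed line marks equality, and MRPL38 (-1.16) and MRPS24 (-0.69) lie outside the plot. MRPS6, MRPL39 and MRPL40 sit at neighbour medians near -0.3, and MRPL55, MRPL23 and MRPL20 sit well above the line.

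Among genes that fell outside these chromosomes, MRPS33 (chr7:141002610-141015228), a mitochondria-specific small subunit protein, went from 111, 111 and 111 CPM to 97.5, 99.9 and 96.8 CPM (-0.18 ± 0.0324, adjusted p = 7.98e-06). MRPS26, also mitochondria-specific, lies on chromosome 20, where the median of all tested genes was -0.15. It went from 61.5, 58.3 and 61.1 CPM to 53.1, 53.6 and 51.0 CPM (-0.20 ± 0.0414, adjusted p = 7.55e-05). With the neighbours removed MRPS26 was at -0.10 and MRPS33 at -0.11, both still called. MRPS33 and MRPS26 were the only 2 of the 10 lower genes whose call was made under all 14 alternatives. MRPS10, a bacterial homolog in the head, fell by 0.15 on the log2 scale and was at -0.08 and not called with the neighbours removed. MRPL51 fell by 0.08 with an adjusted p of 0.0216, which was lost without parental replicate 1 (-0.09), parental replicate 2 (-0.07) or knockout replicate 2 (-0.06). MRPL38, part of the central protuberance of the large subunit, was covered by 9, 25 and 18 reads in the parental and by 6, 13 and 5 in the knockout libraries. Its fitted change of -1.16 ± 0.474 (adjusted p = 0.0428) rested on counts that overlapped between the groups, and the call was lost without parental replicate 2 (-0.82), parental replicate 3 (-1.12), knockout replicate 1 (-1.06) or knockout replicate 3 (-0.89). Of the 29 higher genes 12 were called under all alternatives, 8 of the large subunit (MRPL55, MRPL20, MRPL35, MRPL37, MRPL16, MRPL22, MRPL44 and MRPL13) and 4 of the small subunit (MRPS31, MRPS30, MRPS11 and MRPS22).

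The large and the small subunit were set against each other by counts, medians and a score per sample. Of the large subunit 35.4% of tested genes were higher and 12.5% lower, and of the small subunit 41.4% and 13.8%. The median log2 fold change was 0.07 in each. The score is the mean over a subunit's tested genes of log2 CPM centred on each gene's mean over the 6 samples. For the large subunit it was -0.042, -0.010 and -0.018 in parental and 0.027, 0.059 and -0.017 in knockout samples. For the small subunit it was -0.020, -0.030 and -0.006 in parental and 0.032, 0.036 and -0.012 in knockout samples. In both subunits knockout replicates 1 and 2 were above all parental samples and knockout replicate 3 lay within the parental range. Large minus small was -0.022, 0.020 and -0.012 in parental and -0.005, 0.023 and -0.004 in knockout samples. The groups overlapped, and their means differed by 0.009, less than the standard deviations of 0.0222 and 0.0158 within groups.

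Summed over the genes, the large subunit took 2396, 2382 and 2389 CPM in parental and 2512, 2500 and 2428 CPM in knockout samples, a ratio of means of 1.04. The small subunit took 1560, 1557 and 1574 CPM in parental and 1602, 1623 and 1579 CPM in knockout samples, a ratio of 1.02. In each case the lowest knockout sample, replicate 3, was above the highest parental sample. Large subunit counts were 1.52 to 1.54 times those of the small subunit in parental and 1.54 to 1.57 times in knockout samples, and all members together took 0.389% to 0.393% and 0.405% to 0.417% of the counts.

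**Figure D4:**
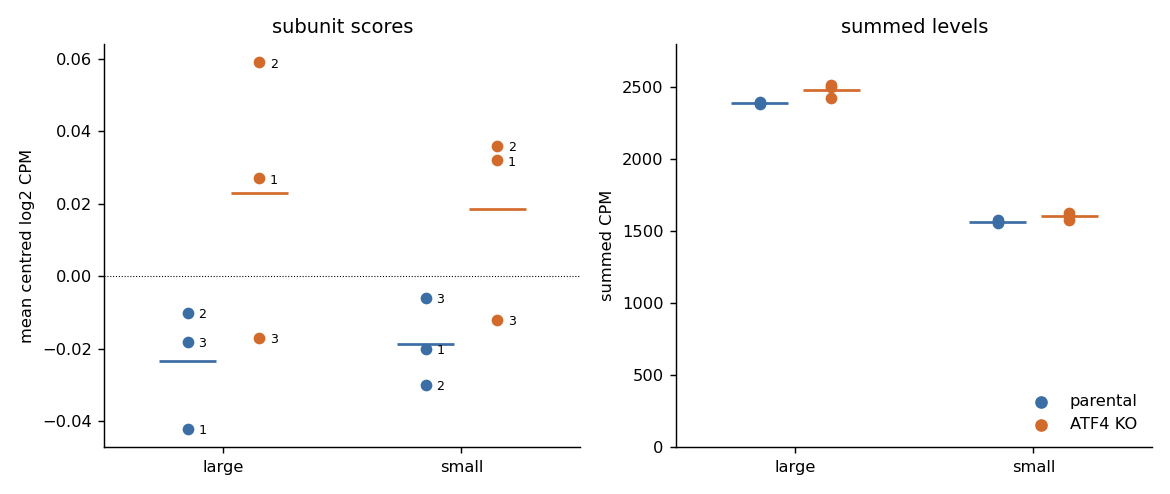
Left, mean centred log2 CPM of the 48 large and 29 small subunit genes in each sample, with the replicate number beside each point. Right, summed CPM of each subunit, on an axis that starts at 0. Blue is parental and orange ATF4 knockout (n = 3 each), and lines are means. Knockout replicate 3 lies among the parental samples on the left, and the sums on the right differ by a few percent.

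Members with a bacterial homolog and mitochondria-specific members differed in counts of calls. Of 46 tested bacterial homologs 19 were higher (41.3%) and 2 lower (4.35%, MRPS6 and MRPS10), with a median of 0.06. Of 28 tested mitochondria-specific members 8 were higher and 8 lower (28.6% each), with a median of 0.09. Over all tested genes 21.2% were higher and 20.8% lower. With the neighbours removed 14 homologs were higher and 2 lower, and 5 and 3 of the mitochondria-specific members, with a median of 0.04 in each. All-gene shares in that fit were 18.1% and 18.3%. Within the large subunit, 12 of 29 homologs were higher and none lower by edgeR, DESeq2 or limma-voom, where 1 homolog, MRPL33, had an unadjusted p under 0.05 in the lower direction and was called lower in 4 of 14 alternatives. Of the 18 mitochondria-specific large subunit genes 4 were higher (MRPL37, MRPL58, MRPL41 and MRPL44) and 6 lower (MRPL38, MRPL39, MRPL40, MRPL48, MRPL49 and MRPL51). Of those 6 lower genes 4 lie on chromosomes 11, 21 and 22, and with the neighbours removed 1, MRPL38, was still called. After that subtraction 11 large subunit homologs were higher and 2 lower (MRPL33 and MRPL34).

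Some names do not give a protein's place in the ribosome. MRPS18A, MRPS18B and MRPS18C are paralogs of bacterial S18, of which MRPS18A sits in the large subunit. MRPS18C rose, from 14.7, 13 and 14.2 CPM to 15.8, 15.7 and 16.5 CPM (0.20 ± 0.0718, adjusted p = 0.0194), a call lost without parental replicate 2 (0.15) or knockout replicate 3 (0.18). MRPS18A was at 43.0, 42.6 and 42.4 CPM in parental and 44.3, 45.0 and 43.8 CPM in knockout samples (0.06, adjusted p = 0.344), and MRPS18B was at -0.02 with an adjusted p of 0.773. Neither was called, with 95% intervals of -0.03 to 0.15 and -0.09 to 0.06. MRPS30, which despite its name is part of the large subunit, rose by 0.30 ± 0.0449. MRPS36, now known as a subunit of the 2-oxoglutarate dehydrogenase complex, was at 18.1, 17.1 and 16.2 CPM in parental and 17.1, 18.6 and 18.9 CPM in knockout samples and was not called. MRPL42, once assigned to the small subunit, was at -0.04 and not called. With MRPS30 and MRPS18A counted as large and MRPS36 left out, 18 large subunit genes were higher and 6 lower, and 11 small subunit genes were higher and 4 lower.

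Levels between genes were compared per kilobase of exon. The median was 18.6 CPM per kb for the large and 16.4 CPM per kb for the small subunit in parental samples and 17.9 CPM per kb for both in knockout samples. The large subunit median moved by a change of order. It was the level of MRPL19 in parental samples, which was at 19.1 in knockout samples. In knockout samples it was that of MRPL4, which was at 17.7 in parental samples. The highest levels in parental samples were those of MRPL14, on the face of the large subunit that meets the small one, at 118 CPM per kb, of MRPL51 at 93.3 and of MRPS34 at 91.5, with MRPS35 next in the small subunit at 55.3. The lowest of the large subunit were MRPL53, with no count in any sample (which allows up to 0.0634 to 0.0729 CPM per library, 3 counts, counting error only), MRPL38 at 0.109 and MRPL46 at 0.171 CPM per kb. The lowest of the small subunit were MRPS24 at 0.225 and MRPS28 at 1.97 CPM per kb. MRPL14, MRPS34 and MRPS35 were not called between the groups.

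Several of the low levels belong to genes whose exons another gene shares on the same strand in the annotation, where reads may be left uncounted. More than 20% of exon bases are shared in 7 members, and 6 of these are among the 10 members under 10 CPM (both limits were set after the values were seen). In MRPL53 45.2% of exon bases are shared with CCDC142, in MRPL12 68.2%, in MRPL38 37.5% and in MRPS28 35.8% with unnamed genes, in MRPS17 27% with NIPSNAP2 and an unnamed gene, and in MRPS24 23.2% with the readthrough gene URGCP-MRPS24. MRPS24 had 0.529, 0.546 and 0.689 CPM in parental and 0.389, 0.409 and 0.296 CPM in knockout samples, and URGCP-MRPS24 was at 0 in all 6. The MRPS24 groups were apart, and the log2 fold change of -0.69 had an adjusted p of 0.124. MRPL33, with 21.1% shared with BABAM2, is the exception at a mean of 72.8 CPM. Whether the sharing lowered the counts of these genes, and how far, was not tested. On the opposite strand, MRPL51 shares 31.3% of its exon bases with NCAPD2, which rose by 0.42, and MRPS18C shares 40.2% with ABRAXAS1. The strand setting used in counting is not given, so these values carry that uncertainty. Named pseudogenes exist for 36 members, and the 79 pseudogenes held 135 counts in all over the 6 samples, 63 of them none.

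**Figure D5:**
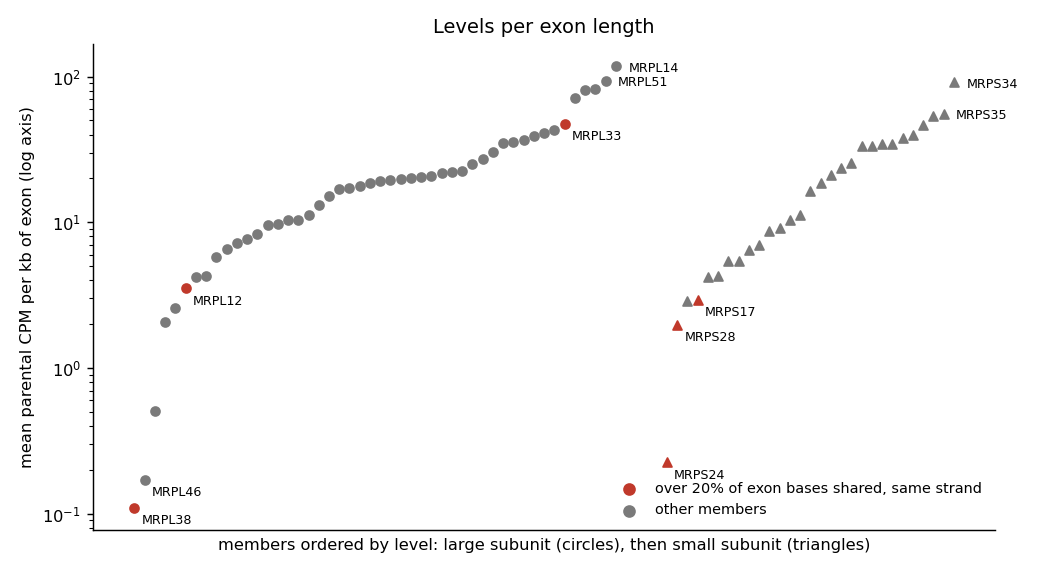
Mean parental level per kilobase of exon (vertical log axis) of the 77 members with counts, ordered within the large subunit (circles) and the small subunit (triangles). Red marks genes with more than 20% of exon bases shared with another gene on the same strand. Red points hold the lowest place in each subunit (MRPL38 and MRPS24), and MRPL33 is the only red point among the higher levels.

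Promoter sequence from RefSeq (GRCh38.p14, 250 bases before to 50 after the start) was matched for 69 of 78 members. The table searched holds 27305 genes, expressed in these cells or not, so the shares over all promoters are not those of expressed genes. The ETS motif bound by GABPA (CCGGAAG, both strands) was in 30 member promoters, 43.5%, against 12.2% of all promoters. The palindromic NRF1 consensus (with 1 free base, both strands) was in 9, 13% against 7.0%. The composite C/EBP-ATF element to which ATF4 binds with partners (TGATGNAA, both strands) was in 1, MRPL55, 1.4% against 4.5%. Of 29 tested members with the ETS motif 12 were higher and 7 lower, with a median of 0.06. Of 39 without it 13 were higher and 3 lower (MRPS6, MRPL39 and MRPL49), with a median of 0.07. All-gene shares were 21.2% higher and 20.8% lower. With the neighbours removed 7 with the motif were higher and 4 lower (MRPL33, MRPL38, MRPS26 and MRPS33). Without the motif 9 were higher and 1 lower (MRPL34), and all-gene shares in that fit were 18.1% and 18.3%. Of 9 members with the NRF1 motif MRPL36 and MRPS9 were higher and MRPS33 lower. Shown here are stretches upstream of the RefSeq start of genes that rose, with the motif in capitals. They are MRPL55 with the only C/EBP-ATF match, MRPL36 with an NRF1 match, and MRPS31, MRPS22 and MRPL58 with ETS matches.
MRPL55: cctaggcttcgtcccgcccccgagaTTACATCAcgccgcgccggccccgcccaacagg
MRPL36: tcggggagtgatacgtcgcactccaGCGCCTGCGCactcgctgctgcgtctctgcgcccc
MRPS31: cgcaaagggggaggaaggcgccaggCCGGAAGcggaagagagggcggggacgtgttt
MRPS22: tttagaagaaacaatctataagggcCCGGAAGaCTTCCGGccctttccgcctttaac
MRPL58: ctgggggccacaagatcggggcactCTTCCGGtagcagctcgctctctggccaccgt
In the direction of transcription these are chr1:228109382-228109439 on the minus strand, chr5:1799913-1799972 (minus), chr13:40771191-40771247 (minus), chr3:139343882-139343938 (plus) and chr17:75012452-75012508 (plus). The MRPL55 match lies 108 bases before the start and reads as the element on the other strand. MRPS22 holds the ETS motif on both strands, 1 base apart, and in MRPS31 the motif lies 26 bases before the start. The MRPL36 and MRPS22 stretches lie inside the outermost GENCODE bounds of these genes, whose outermost starts lie further upstream. A match is a description of letters and does not show a bound site.

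Several members lie head to head with a gene on the other strand. Distances here are between the outermost GENCODE starts, which need not be the RefSeq starts searched for motifs. MRPS11 and MRPL46, of the small and the large subunit, lie 34 bases apart. MRPS11 rose (0.28), and MRPL46, at 1.01, 1.05 and 1.23 CPM in parental and 1.31, 1.72 and 1.27 CPM in knockout samples, was at 0.39 ± 0.229 and not called (adjusted p = 0.177). The outermost start of MRPL36 lies 34 bases from NDUFS6, a subunit of respiratory complex I, and the MRPL36 stretch shown is not this shared region. NDUFS6 rose from 29.9, 27.5 and 31.6 CPM to 40.5, 42.2 and 35.6 CPM (0.41 ± 0.0577, adjusted p = 2.44e-07) and was at 0.08 with the neighbours removed. MRPL47 rose (0.15) beside NDUFB5, also of complex I, 36 bases away, which was at 0.03 with an adjusted p of 0.545. MRPL27 was at 0.02 beside EME1, 6 bases away, which rose by 1.07, and MRPL52 was at 0.12 beside the amino acid transporter gene SLC7A7, which fell by 0.91.

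Genes that work with these proteins were counted from lists of known factors. Over all tested genes 21.2% were called higher and 20.8% lower, 42% in all. Of 5 mitochondrial ribosomal proteins with other names, 3 were higher by edgeR (GADD45GIP1 0.10, AURKAIP1 0.10 and PTCD3 0.09). DESeq2 did not call AURKAIP1 (DESeq2 adjusted p = 0.0952) or PTCD3 (0.0637), and limma-voom did not call AURKAIP1 (limma-voom adjusted p = 0.0504). None was lower by edgeR, DESeq2 or limma-voom, where no gene had an unadjusted p under 0.05 in that direction. Leaving out 1 library ended the calls of GADD45GIP1 (0.09 without parental replicate 2, 0.07 without knockout replicate 1), AURKAIP1 (0.09, 0.08, 0.10 and 0.07 without parental replicate 1 or 2 or knockout replicate 1 or 2) and PTCD3 (0.07 to 0.10 without any library other than parental replicate 3). DAP3, a GTP-binding protein of the small subunit, was at -0.003 and CHCHD1 at 0.10, and neither was called. With the neighbours removed none of the 5 was called. Of 29 tested factors of ribosome assembly and ribosomal RNA processing, 9 were higher (31.0%) and 5 lower (17.2%), with a median of 0.07. With the neighbours removed the median of these factors was 0.01. The highest value was that of MPV17L2 (0.50, adjusted p = 0.00164), at a mean of 3.34 CPM in parental and 4.73 CPM in knockout samples. METTL17, which acts in assembly of the small subunit, rose from 21.1, 22.9 and 22.3 CPM to 29, 29 and 27.1 CPM (0.36 ± 0.0568, adjusted p = 5.1e-07). RPUSD4, a pseudouridine synthase of the large subunit RNA, fell from 54.2, 51.7 and 50.6 CPM to 42.5, 42.1 and 40.5 CPM (-0.32 ± 0.045, adjusted p = 2.58e-08). In both genes the groups were apart, and both were still called with the neighbours removed (0.28 and -0.20). RCC1L fell by 0.19 and was at -0.15 after the subtraction, and MIEF1 on chromosome 22 (-0.34), METTL15 on chromosome 11 (-0.22) and MTG2 on chromosome 20 (-0.19) fell and were at -0.08, -0.02 and -0.01 after it, none of them called.

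Of 16 translation factors 3 were higher (18.8%) and 1 lower (6.25%), with a median of 0.06, or 0.0006 with the neighbours removed. Over all tested genes 21.2% were called higher and 20.8% lower. The elongation factor GFM1 was at 51.2, 53.5 and 56.4 CPM in parental and 60.5, 57.5 and 62.5 CPM in knockout samples (0.16 ± 0.0429, adjusted p = 0.00134). SLIRP, which with LRPPRC stabilises mitochondrial messenger RNAs, rose by 0.23 and the recycling factor MRRF by 0.13, while GFM2, which acts in recycling, fell by 0.11 (adjusted p = 0.0433). The MRRF call was lost without parental replicate 1 (0.13) or 3 (0.11) or knockout replicate 2 (0.10) or 3 (0.14), and the GFM2 call without any library other than knockout replicate 3 (-0.12 to -0.09). Of 10 nuclear regulators of mitochondrial genes 3 were higher and 3 lower (30% each). Their median was 0.04, and 0.01 with the neighbours removed. NRF1 rose from 11.2, 12.4 and 11.3 CPM to 15.1, 14.3 and 12.9 CPM (0.27 ± 0.0792, adjusted p = 0.00394), and its coactivator-related PPRC1 by 0.17 and GABPB1 by 0.20. GABPA, the DNA-binding partner of GABPB1, lies on chromosome 21 and fell from 54.3, 53.2 and 53.0 CPM to 41.4, 43.9 and 43.2 CPM (-0.32 ± 0.044, adjusted p = 1.88e-08). With the neighbours removed it was at -0.02 and not called. ESRRA, a nuclear receptor, fell by 0.36, and by 0.23 after the subtraction, and MYC fell by 0.08, a call lost without parental replicate 1 (-0.08) or 2 (-0.07) or knockout replicate 1 (-0.07) or 2 (-0.08).

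The ribosomal RNAs themselves are encoded in mitochondrial DNA. MT-RNR2, of the large subunit, was at 7141, 6930 and 8797 CPM in parental and 4295, 3470 and 4370 CPM in knockout samples (-0.91 ± 0.15, adjusted p = 0.00954). MT-RNR1, of the small subunit, was at 819, 814 and 919 CPM in parental and 585, 436 and 510 CPM in knockout samples (-0.74 ± 0.132, adjusted p = 0.0127). Both fell with no overlap of the groups, while the median of the protein genes was 0.07. The MT-RNR1 call was lost without knockout replicate 3 (-0.74), and with the replicate number as a block its adjusted p was 0.0515 (1.99e-11 to 0.247 over all alternatives). The kit selects messenger RNA, so these values are what was left of ribosomal RNA in the libraries. The 17 tested genes of mitochondrial DNA had a median of -0.50, and with that median removed MT-RNR2 was at -0.42 and MT-RNR1 at -0.24, neither called.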

How the data were processed

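RNA of RCC4 cells was sequenced after a stranded mRNA library preparation. The deposited file gives, per gene and library, raw read counts made by the authors. Per the submitters' processing notes, the authors used bcl2fastq 2.20, cutadapt, STAR and HTSeq with GRCh38, with neither the annotation release nor the strand setting of the counting stated.

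Symbols came from a gene name table (60370 of 60683 identifiers) and GENCODE 29 (289 more), which also gave coordinates and exon lengths. Genes kept by filterByExpr (15321) were scaled by TMM and tested with edgeR 4.0.16 (quasi-likelihood F test, robust, R 4.3.3). Benjamini-Hochberg adjustment ran over all of these genes, and an adjusted p below 0.05 made a call. The steps were tested on simulated data. Scores used log2 CPM with a prior count of 2. Promoters were those of RefSeq (GRCh38.p14).

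Groups were compared without a replicate term, since the labels do not say that replicate numbers pair samples. Same-numbered samples did not deviate together (correlations of -0.028, 0.006 and -0.016). The chi-square per degree of freedom between replicates was 3.59 to 5.8, where sampling noise alone gives about 1. All 6 samples were kept, and no rule for outlying samples was applied. The alternatives were other scalings, filters and tests (DESeq2 1.42.0, limma 3.58.1), a replicate block, removal of the median of neighbouring genes, and each library left out.

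The members, the lists and the neighbour correction were chosen with earlier results of these data known. Named genes were ATF4, up to 8 called members at each end of each subunit, the 2 highest and 2 lowest levels per kb, members whose name and place differ, the ribosomal RNAs, the 4 smallest p in each associated list and small counts. Genes with partners on the other strand, overlapping genes and motif examples were chosen after their values were seen.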

Additional observations from a re-analysis of the deposited data

How the results depend on the processing

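Over 14 alternatives and 53 named genes, 647 of 740 values kept their direction and side of the threshold, 75 lost the call, 5 gained one and 13 changed sign. Removing the median of neighbouring genes moved most. It gave 3 instead of 6 lower genes in the large subunit. In the small subunit it gave 6 instead of 12 higher and 2 instead of 4 lower genes. The median was 0.05 instead of 0.07 in each subunit, and 17 instead of 27 associated genes were called. This removal is built to take out shifts shared by a region. In that fit the sign turned for ATF4 (0.08), MRPS18B (0.02), MRPL40 (0.02), MRPL39 (0.06), MRPL51 (0.0008), MRPL36 (-0.07), MRPS35 (0.01) and MRPS34 (-0.008). Scaling by total counts gave a median of 0.10 in each subunit and MRPS18B at 0.01, with the median of all genes at 0.03. The small subunit median ranged from 0.05 to 0.08 when each library was left out, and the sign of MRPS34 (-0.01 without parental replicate 1 or knockout replicate 2), MRPS18B (-0.05 to 0.0009 over these fits, above 0 without parental replicate 2) and MRPL42 (0.006 without knockout replicate 2) turned. These 3 genes were not called with all samples. The cause was not tested.

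With the replicate number as a block, 18 large and 12 small subunit genes were higher and 6 and 4 lower, and 6405 genes were called in all, so the block moved no count by over 1.5 times. It ended the calls of MT-RNR1 and AURKAIP1. Depth limits the low genes, such as MRPL38 with 5 to 25 and MRPL46 with 44 to 80 counts per library.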
